A study of Mus musculus with 6 samples.

Results

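The genes described here are the protein-coding genes of the cytosolic ribosome in endothelial cells (ECs) of the mouse spinal cord. They were taken by symbol from the deposited gene table (Rpl or Rps with a number, and Rplp0, Rplp1, Rplp2 and Rpsa, without the Rps6k kinases) where the counts of the 6 libraries summed to at least 60. This rule chose 81 of the 56748 genes of the table. All 81 were among the 13107 genes tested after the filter on low counts. Of these, 46 code for proteins of the large (60S) subunit and 31 for proteins of the small (40S) subunit, and 4 are paralogs of other members (Rpl22l1, Rps27l, Rpl7l1 and Rpl3l). The members were thus chosen by symbol and by 1 measured value, the total count over all 6 libraries, and not by its division between the genotypes. Just inside the limit stood Rpl3l with 427 counts, and the next members were Rps21 with 12528 and Rpl12 with 15807. Just outside it were Rpl10l and Rpl39l, each with 0 counts in all 6 libraries.

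The control mice carried floxed Tardbp alleles without Cre (genotype Tardbpflox), and the TDP-43iΔEC mice had the same alleles with a tamoxifen-activated Cre under the endothelial Cdh5 promoter (Cdh5(PAC)-CreERT2;Tardbpflox). Mice of both groups were on a C57BL/6 background and received 50 μL of tamoxifen at 1 mg/mL on each of P5, P6 and P7, which in cells with active Cre removes exon 3 of Tardbp, the gene of the RNA-binding protein TDP-43. ECs were sorted from the spinal cord at P16 and RNA-Seq was done with SMARTseq2, in 3 libraries per genotype, and Cre itself was therefore present in 1 group only. The labels number the samples 1 to 3 within a genotype but do not say that each is 1 mouse, so p values measure the spread between these samples. The study used mice of both sexes in mixed groups, and sex was not taken into account here, also for X-linked members.

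Cytosolic ribosomes translate nuclear-encoded mRNAs. Each subunit joins ribosomal RNA (rRNA) with a fixed set of proteins, most of them present as a single copy, so the genes of this set are transcribed and translated in step in most cells. Their mRNAs are short and abundant and belong to the terminal oligopyrimidine (TOP) class, which start with a C followed by a run of pyrimidines and whose translation is controlled through mTORC1. Growing and dividing cells, such as ECs of developing vessels, make new ribosomes at a high rate. The mouse genome also holds many processed pseudogenes of these mRNAs.

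Control libraries held between 44041329 and 47270654 counts, and the TDP-43iΔEC libraries held 45010088, 28228980 and 25704871 counts in the order of their numbers. Levels of genes are given as CPM (counts scaled to a common library total) after TMM scaling, which corrects each library total for the make-up of the library. Tardbp had 55.3, 61.9 and 58.5 CPM in the control libraries and 26.6, 16.2 and 11.8 CPM in the TDP-43iΔEC libraries. These groups did not overlap, and the log2 fold change was −1.62 (SE 0.41, limma adjusted p = 0.287; with DESeq2 in place of limma, adjusted p = 0.022, and 0.217 to 0.966 over the other 18 alternatives). The counts cover the whole gene and not the deleted exon alone. The EC markers Pecam1, Cldn5, Kdr, Flt1 and Vwf summed to 8948 to 12720 CPM in control and 8997 to 11420 CPM in TDP-43iΔEC libraries. Erythroid genes (5 of 5 detected, 4 of them past the threshold, summed level 6336 to 9759 CPM in control and 2197 to 2909 CPM in TDP-43iΔEC libraries) and neuronal genes (5 of 5 detected, 4.99 to 11.1 and 0.815 to 2.16 CPM) were lower in every TDP-43iΔEC library. Oligodendrocyte genes (4 of 4 detected) ranged from 288 to 545 CPM in control and from 14.9 to 498 CPM in TDP-43iΔEC libraries. Mural cell genes (4 of 4) ranged from 466 to 749 and from 326 to 916 CPM. Fibroblast genes (4 of 4) ranged from 15.7 to 23.1 and from 2.22 to 23.0 CPM, and astrocyte genes (4 of 4) from 5.25 to 20.7 and from 0 to 27.7 CPM. Microglial genes ranged from 0 to 1.80 and from 0.244 to 8.21 CPM, with Adgre1 at 0 in all libraries, and leukocyte genes stayed at or under 0.704 CPM, with S100a8 at 0. The share of counts in rRNA genes was 15.6% to 20.1% in control and 10.1% to 16.3% in TDP-43iΔEC libraries. The part of these differences in the levels of the ribosomal protein genes was not tested.

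No ribosomal protein gene passed the test between TDP-43iΔEC and control ECs. Over the 81 genes the median log2 fold change was −0.37, beside −0.02 over all genes tested, and 77 of the 81 (95.1%) had a value below 0, beside 50.7% of all genes tested. The values were low in the libraries TDP-43iΔEC 1 and TDP-43iΔEC 2 and not in TDP-43iΔEC 3, where the median was above the control mean. The shortest ribosomal protein genes diverged most among the TDP-43iΔEC libraries.

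Limma with voom called 0 of the 81 genes at an adjusted p of 0.05, where 0.137% of all genes tested were called (18 of 13107, of which 14, or 0.107%, were lower). All 18 were among the 1452 genes outside the set with a mean of at least 100 CPM, so the share called was higher among abundant genes. Adjusted p of the members ran from 0.316 (Rpl7) to 0.985 (Rpl35). At an unadjusted p of 0.05, 13 members were below the threshold with limma, all with a negative fold change, or 16.0% of the members beside 5.0% of all genes tested on the lower side and 9.27% in either direction. DESeq2 and edgeR also called 0 members (1.88% and 0.0% of all genes tested), with 5 and 4 members lower at an unadjusted p under 0.05, beside 4.28% and 3.75% of all genes tested. The standard error of the log2 fold change ran from 0.10 to 0.39 among the members other than Rpl3l, with a median of 0.24.

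**Figure D1:**
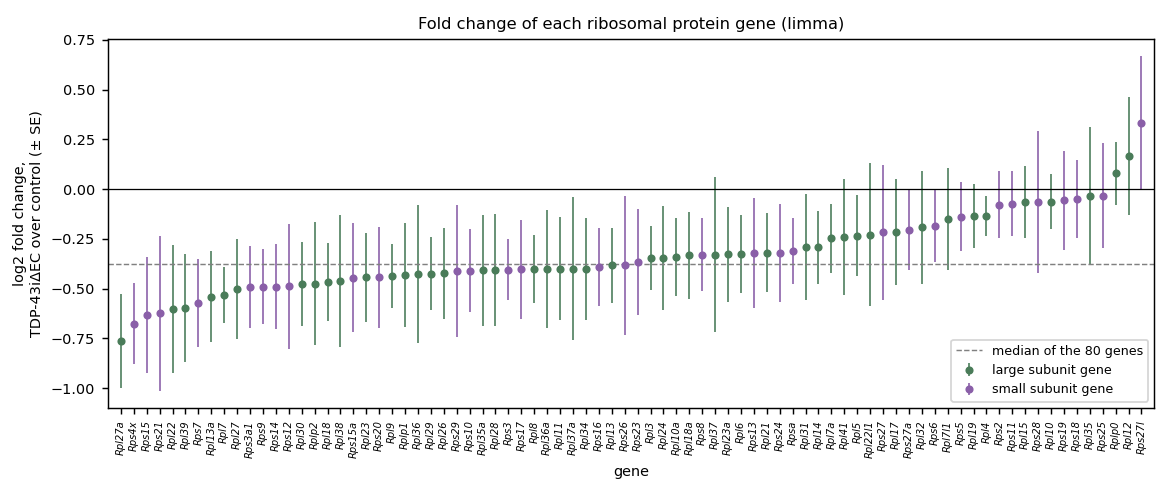
Log2 fold change of each ribosomal protein gene in TDP-43iΔEC over control ECs on the vertical axis, with genes in order on the horizontal axis; points are limma estimates, bars are ± 1 SE, colors mark the subunit and the dashed line is the median of the 80 genes shown. Rpl3l, with a log2 fold change of 3.11 (SE 3.16), is left out. Estimates run from −0.76 (Rpl27a) to 0.33 (Rps27l) and 77 of the 81 genes lie below 0, but 0 passed the test.

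Groups did not overlap, with every TDP-43iΔEC library below every control library, for 5 of the 81 genes, Rpl27a, Rps4x, Rpl7, Rpl9 and Rpl4. That is 6.17% of the members, beside 7.93% of all genes tested that did not overlap in this direction, and no member was separated in the other direction. Without the library TDP-43iΔEC 3, the number was 65 members (12.2% of all genes tested), and 42 members had an unadjusted p under 0.05 (3.6% of all genes tested on the lower side), but 0 passed the adjusted threshold (0.0141% of all genes tested). Without control 1 the number was 16 (11.7% of all genes tested), without control 2 it was 10 (14.1%), without control 3 it was 7 lower (12.0%) and 1 higher, without TDP-43iΔEC 1 it was 6 (11.9%) and without TDP-43iΔEC 2 it was 8 (13.0%).

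Rpl27a, a protein of the large subunit (ENSMUSG00000046364.15, GRCm39 chr7:109118254-109121583), had the lowest fold change. Its levels were 210, 199 and 223 CPM in control and 117, 96.5 and 180 CPM in TDP-43iΔEC libraries, with a log2 fold change of −0.76 (SE 0.24, limma adjusted p = 0.388). All 3 TDP-43iΔEC libraries were below the control libraries, and the third was nearest to them. Of its exon bases, 11.9% are shared with other annotated genes, among them snoRNA genes.

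Rps4x, the X-linked copy of a small subunit protein (ENSMUSG00000031320.10, GRCm39 chrX:101228542-101233014), stood at 1173, 1339 and 1869 CPM in control and 979, 720 and 1010 CPM in TDP-43iΔEC libraries. The log2 fold change was −0.68 (SE 0.20, limma adjusted p = 0.370), and the control libraries were spread more widely than the gap between the groups. Rpl7, a large subunit protein (ENSMUSG00000043716.14, GRCm39 chr1:16169408-16174886), had 1367, 1319 and 1623 CPM in control and 947, 889 and 1187 CPM in TDP-43iΔEC libraries. Its log2 fold change of −0.53 (SE 0.14, limma adjusted p = 0.316) was the one with the lowest p among the members. In both genes the first 2 TDP-43iΔEC libraries were lower than the third.

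Rpl9, a large subunit protein, had 582, 709 and 714 CPM in control and 493, 428 and 571 CPM in TDP-43iΔEC libraries (log2 fold change −0.44, SE 0.16). Rpl4, a large subunit protein that reaches into the exit tunnel of the nascent chain, had 1385, 1311 and 1400 CPM in control and 1254, 1265 and 1203 CPM in TDP-43iΔEC libraries. Its groups did not overlap, but the log2 fold change was small, −0.14 (SE 0.10, limma adjusted p = 0.675), and it was positive under 3 other scalings (library size only, quantile normalization and EC markers). Rpl4 has the longest coding sequence of the members, 1257 bases, and the smallest standard error.

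The other members with the lowest estimates overlapped between the groups. Rps15, a small subunit protein, had 156, 151 and 237 CPM in control and 102, 93.3 and 175 CPM in TDP-43iΔEC libraries (log2 fold change −0.63, SE 0.29). Rps21, a small subunit protein, had 52.0, 58.0 and 76.4 CPM in control and 34.9, 27.1 and 77.9 CPM in TDP-43iΔEC libraries (log2 fold change −0.62, SE 0.39). TDP-43iΔEC 3 was thus the highest of the 6 libraries for Rps21, while the other 2 were the lowest. Rpl22, a large subunit protein that also binds other RNAs, had 88.2, 135 and 125 CPM in control and 53.9, 82.2 and 115 CPM in TDP-43iΔEC libraries (log2 fold change −0.60, SE 0.32). Rpl39, a small protein of the exit tunnel, had 104, 125 and 145 CPM in control and 81.9, 61.8 and 111 CPM in TDP-43iΔEC libraries (log2 fold change −0.60, SE 0.27). The limma adjusted p of these 4 genes ran from 0.544 to 0.620.

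The 6 members at the upper end were Rpl35, Rps25, Rplp0, Rpl12, Rps27l and Rpl3l. Rpl35, a protein beside the exit of the tunnel, had 174, 166 and 239 CPM in control and 150, 136 and 363 CPM in TDP-43iΔEC libraries, and Rps25, a small subunit protein, had 243, 281 and 361 CPM in control and 303, 195 and 397 CPM in TDP-43iΔEC libraries. Both had a log2 fold change of −0.03, which turned positive under 12 alternatives for Rpl35 and 11 for Rps25, and for both the third TDP-43iΔEC library was the highest of all 6. Rplp0 and Rpl12 are described with the stalk and Rps27l and Rpl3l with the paralogs.

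The library pattern was shared by most members, as the map of levels by gene and library shows. Against the control mean, the median log2 difference of the 80 members other than Rpl3l was −0.46 in TDP-43iΔEC 1, −0.63 in TDP-43iΔEC 2 and 0.12 in TDP-43iΔEC 3. In TDP-43iΔEC 1, 68 of the 80 genes lay below all control libraries, and in TDP-43iΔEC 2 it was 73. In TDP-43iΔEC 3, 7 lay below and 23 lay above all control libraries. Both TDP-43iΔEC 1 and TDP-43iΔEC 2 were below every control library in 65 genes, beside 12.2% of the genes tested without TDP-43iΔEC 3. TDP-43iΔEC 3 was the highest TDP-43iΔEC library in 75 of the 80 genes. The counts for single libraries were not made over all genes tested, so no share stands beside them. They are on the TMM scale and were not made under other scalings. TMM factors were 1.08 and 1.11 in TDP-43iΔEC 1 and TDP-43iΔEC 2 and 0.915 to 0.976 in control libraries. A higher factor lowers all levels of a library.

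The control libraries were not alike either. Control 3 was the highest control library in 76 of the 80 genes and the highest of all 6 libraries in 53, while TDP-43iΔEC 3 was the highest of all 6 in 23. TDP-43iΔEC 2 was the lowest of all 6 libraries in 62 genes. The median span between the highest and the lowest library of a group, on the log2 scale, was 0.50 in control and 0.82 in TDP-43iΔEC libraries, and it was wider in TDP-43iΔEC for 64 of the 80 genes. The counts per library of TDP-43iΔEC 2 and TDP-43iΔEC 3 were the lowest of the 6, and rRNA genes took 16.3% of counts in TDP-43iΔEC 3, within the control range. In the methods of the study, RNA input and the number of cDNA amplification cycles also varied, and the values of each library are not given. Whether depth, rRNA, input or amplification had a part in the library pattern was not tested.

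**Figure D2:**
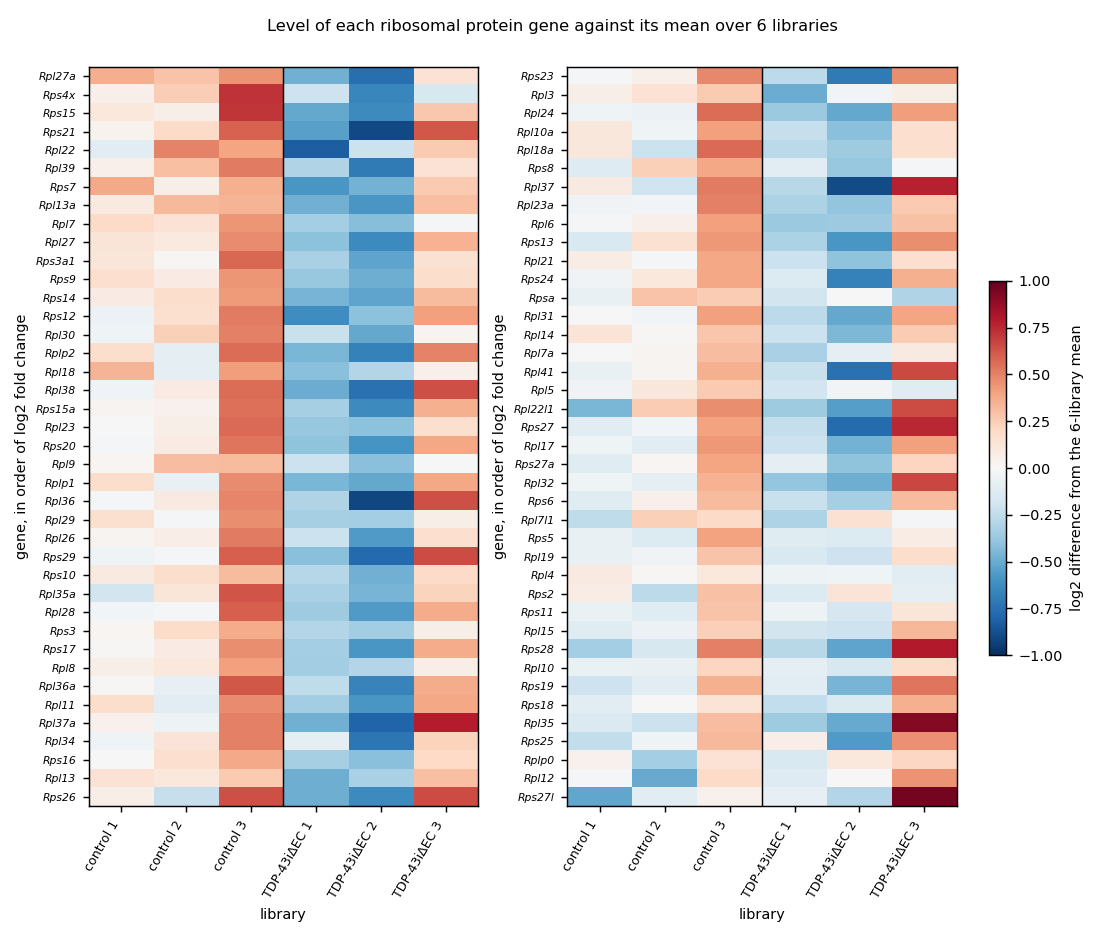
Level of each ribosomal protein gene (rows, in order of log2 fold change, in 2 columns of 40) in the 6 libraries (columns), as the log2 difference from the mean of that gene over the 6 libraries; red is above and blue below the mean, and a line divides control from TDP-43iΔEC libraries. TDP-43iΔEC 1 and 2 are blue in most rows, and control 3 and TDP-43iΔEC 3 are red in most.

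The share of all counts that fell on the 81 genes repeats this order without any scaling. It was 3.43% (95% Wilson interval 3.42% to 3.43%), 3.22% (3.21% to 3.22%) and 4.18% (4.17% to 4.18%) in the control libraries. It was 3.10% (3.09% to 3.10%), 2.98% (2.98% to 2.99%) and 4.10% (4.09% to 4.10%) in the TDP-43iΔEC libraries. The intervals cover counting error only, since PCR copies were not told apart by molecular identifiers. Mean shares were 3.61% ± 0.505 in control and 3.39% ± 0.612 in TDP-43iΔEC libraries (SD, n = 3 each), a log2 ratio of −0.09 that was smaller than the spread within either group. Without control 3 the log2 ratio was 0.03. With rRNA, mitochondrially encoded and hemoglobin genes left out of the total, the shares were 4.55% ± 0.731 in control and 4.06% ± 0.922 in TDP-43iΔEC libraries, a log2 ratio of −0.17. In a bulk sample of sorted cells, fewer cells of a type and less RNA of these genes per cell cannot be told apart.

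**Figure D3:**
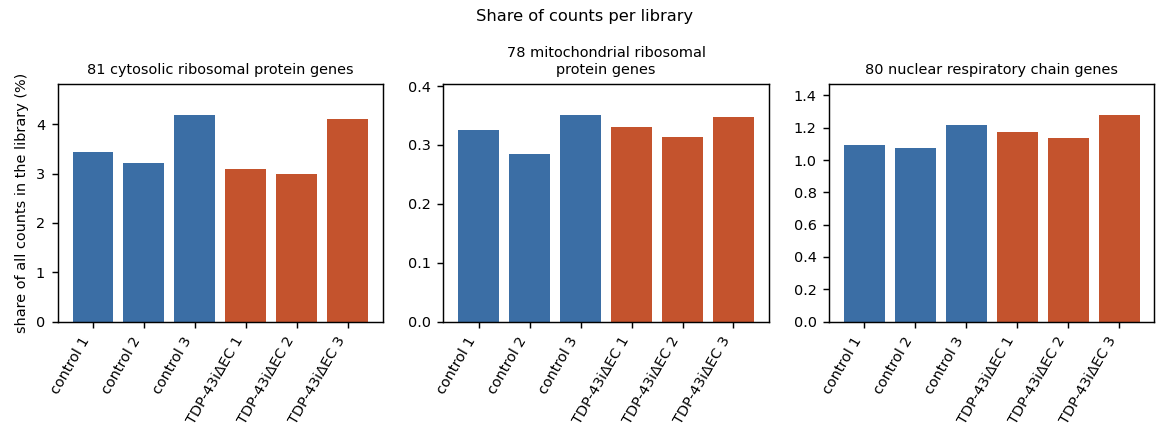
Share of all counts in each library, in percent from 0 on the vertical axis, that fell on the cytosolic ribosomal protein genes, the mitochondrial ribosomal protein genes and the nuclear-encoded respiratory chain genes; blue bars are control and orange bars TDP-43iΔEC libraries. For the cytosolic set the shares run from 2.98% to 4.18%, and control 3 and TDP-43iΔEC 3 are the highest of their groups.

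The spread between TDP-43iΔEC libraries followed the length of the coding sequence, which ran from 138 to 1257 bases over the 80 members other than Rpl3l with a median of 462. In the 9 members under 300 bases, the median log2 difference from the control mean was −0.95 in TDP-43iΔEC 2 and 0.56 in TDP-43iΔEC 3. In the 47 members from 300 up to 600 bases it was −0.67 and 0.15, and in the 24 members of 600 bases or more −0.45 and −0.05. The 2 libraries thus moved in opposite directions as length fell, while TDP-43iΔEC 1 stayed at −0.42, −0.49 and −0.36 in the 3 classes. All genes tested with a count in every library went the same way, with −0.32, −0.23 and 0.05 in TDP-43iΔEC 2 and 0.35, 0.13 and −0.00 in TDP-43iΔEC 3. Over the 80 members, which share libraries and depth, Pearson's r between the log2 coding length and the deviation from the 6-library mean was 0.69 in TDP-43iΔEC 2, −0.70 in TDP-43iΔEC 3, −0.42 in control 3, 0.26 in control 1, 0.18 in TDP-43iΔEC 1 and 0.03 in control 2, across genes, which are not independent replicates. Between log2 coding length and the fold change r was 0.10. With the trend of each library on coding length and GC content removed, the median fold change of the members was −0.31 on the log2 scale, 70 of them lay below 0, and 0 passed the test.

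**Figure D4:**
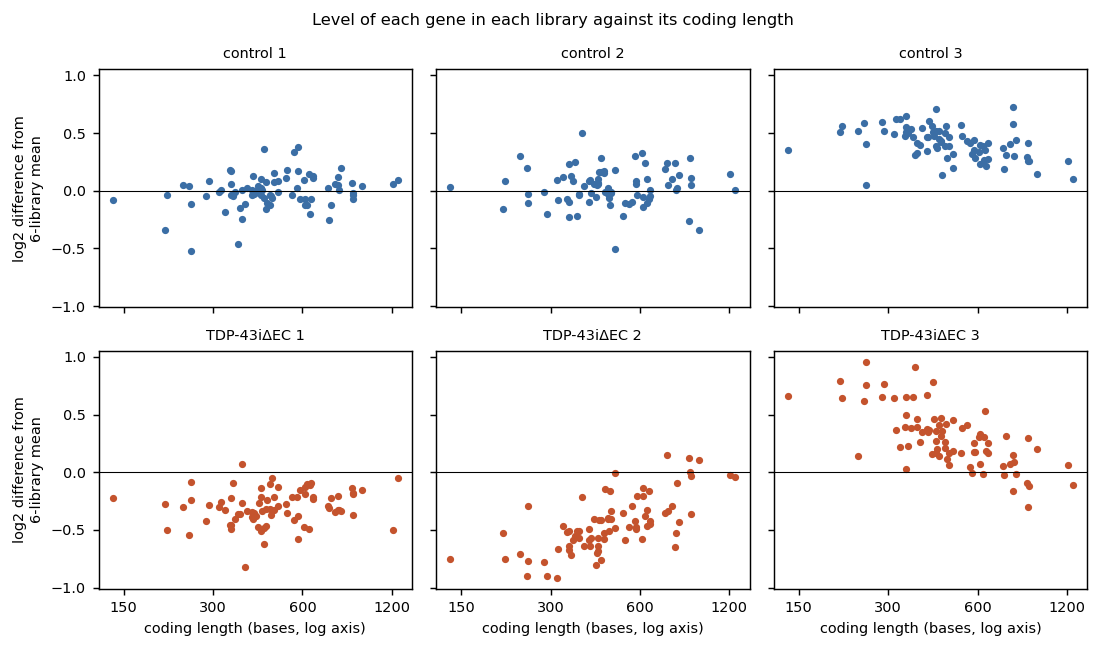
Log2 difference of each of the 80 ribosomal protein genes from its 6-library mean (vertical axis) against its coding length in bases (horizontal log axis), with 1 panel for each library, control in blue and TDP-43iΔEC in orange. Points rise with length in TDP-43iΔEC 2 (r = 0.69) and fall with length in TDP-43iΔEC 3 (r = −0.70).

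The large and the small subunit had like values. The median log2 fold change was −0.39 over the 46 large subunit genes, of which 44 lay below 0 and 7 had an unadjusted p under 0.05. It was −0.38 over the 31 small subunit genes, of which 31 lay below 0 and 6 had an unadjusted p under 0.05. Of all genes tested, 50.7% lay below 0, and 5.0% had an unadjusted limma p under 0.05 on the lower side. Large subunit genes took 2.10% ± 0.276 of all counts in control and 1.99% ± 0.344 in TDP-43iΔEC libraries, and small subunit genes took 1.48% ± 0.230 and 1.37% ± 0.260 (SD, n = 3 each).

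Levels differed widely among the members. Per kilobase of coding sequence, the mean level over the 6 libraries was 1.28 CPM per kb for Rpl3l, and over the other 80 members it ran from 123 CPM per kb for Rpl7l1 to 4422 CPM per kb for Rpl41, whose coding sequence is the shortest, with a median of 747 CPM per kb. In CPM, the highest were Rplp0, Rpl4, Rps6, Rpl7, Rps4x and Rpl10. Rps6, the small subunit protein phosphorylated by S6 kinases, had 1117, 1259 and 1515 CPM in control and 1046, 965 and 1518 CPM in TDP-43iΔEC libraries (log2 fold change −0.18, SE 0.18, limma adjusted p = 0.757). Rpl10, a large subunit protein near the peptidyl transferase center, had 1039, 1033 and 1266 CPM in control and 1020, 974 and 1234 CPM in TDP-43iΔEC libraries (log2 fold change −0.06, SE 0.14). For both genes the groups overlapped and the third library of each group was the highest. The estimate turned positive under 3 alternatives for Rps6 and 5 for Rpl10.

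The stalk of the large subunit, which recruits and activates translation factors, is formed by Rplp0, Rplp1 and Rplp2 on a base that includes Rpl12. Rplp0 had 1523, 1169 and 1636 CPM in control and 1330, 1595 and 1706 CPM in TDP-43iΔEC libraries (log2 fold change 0.08, SE 0.16). Rplp1 had 288, 242 and 353 CPM in control and 186, 178 and 334 CPM in TDP-43iΔEC libraries (log2 fold change −0.43, SE 0.26). Rplp2 had 172, 142 and 224 CPM in control and 111, 95.6 and 215 CPM in TDP-43iΔEC libraries (log2 fold change −0.48, SE 0.31). The base protein Rpl12 had 67.5, 47.9 and 77.7 CPM in control and 62.1, 67.7 and 93.0 CPM in TDP-43iΔEC libraries (log2 fold change 0.17, SE 0.30). The acidic proteins Rplp1 and Rplp2 were lower in the first 2 TDP-43iΔEC libraries than in any control library, which was not so for Rplp0 and Rpl12, and the groups overlapped for all 4 genes. The difference between these pairs was not tested. The estimates of Rplp0 and Rpl12 turned negative when control 2, the lowest control library for both, was left out (−0.07 and −0.03).

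Rpl5 and Rpl11 form a particle with 5S rRNA and are known as inhibitors of Mdm2. Rpl5 had 123, 136 and 151 CPM in control and 110, 124 and 116 CPM in TDP-43iΔEC libraries (log2 fold change −0.24, SE 0.20). Rpl11 had 333, 274 and 409 CPM in control and 231, 197 and 385 CPM in TDP-43iΔEC libraries (log2 fold change −0.40, SE 0.26). TDP-43iΔEC 3 was close to the other TDP-43iΔEC libraries for Rpl5 and well above them for Rpl11. Rpsa, the small subunit protein known as the laminin receptor precursor, had 415, 532 and 520 CPM in control and 384, 438 and 355 CPM in TDP-43iΔEC libraries (log2 fold change −0.31, SE 0.17, limma adjusted p = 0.581). TDP-43iΔEC 3 was the lowest TDP-43iΔEC library for Rpsa, which held for 2 of the 80 members compared by library. Rps27a, made as a fusion with ubiquitin, had 373, 412 and 532 CPM in control and 379, 307 and 470 CPM in TDP-43iΔEC libraries (log2 fold change −0.20, SE 0.20).

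Other groups of subunits were counted in the same way, with 0 of 8, 0 of 2 and 0 of 10 genes past the test. Over the 8 genes around the exit of the tunnel, which include Rpl4, Rpl35 and Rpl39, the median log2 fold change was −0.25 and 8 lay below 0. Over Rps2 and Rps3, at the entry of the mRNA channel, it was −0.24. Over 10 genes whose human counterparts are known to be mutated in Diamond-Blackfan anemia, among them Rps19, Rps26, Rpl5 and Rpl11, it was −0.40, with 10 below 0. Rps19 itself had 505, 539 and 745 CPM in control and 538, 421 and 841 CPM in TDP-43iΔEC libraries, and the groups overlapped.

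Each paralog was set beside its parent gene as a ratio of counts within a library, and the groups were apart in 1 of the 4 ratios. Rps27l, a paralog of Rps27 that p53 is known to induce (ENSMUSG00000036781.14, GRCm39 chr9:66853340-66856808), had 77.0, 103 and 114 CPM in control and 104, 90.3 and 215 CPM in TDP-43iΔEC libraries (log2 fold change 0.33, SE 0.34, limma adjusted p = 0.764). Rps27 had 158, 168 and 226 CPM in control and 145, 100 and 289 CPM in TDP-43iΔEC libraries (log2 fold change −0.22, SE 0.34). Taken as a percentage of the Rps27 counts in the same library, Rps27l counts came to 48.7%, 61.2% and 50.5% in control and 72.0%, 89.9% and 74.3% in TDP-43iΔEC libraries, with means of 53.4% ± 6.74 and 78.7% ± 9.77 (SD, n = 3 each). All 3 TDP-43iΔEC libraries were above all control libraries in this ratio. The coding sequences of the pair have the same length, 252 bases, and Rps27l shares no stretch of at least 51 bases at 97% identity with another annotated gene, while Rps27 shares 100% of its coding sequence with 2 other genes, so that its counts were divided by estimation. The ratio was given as a description with no test, and an exact permutation of 3 against 3 libraries could not go below p = 0.1. How often the ratios of other gene pairs were apart was not counted. Of all genes tested, 15.3% were apart in either direction.

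The ratios of the other 3 paralogs overlapped between the groups. Rpl22l1, whose protein can stand in for that of Rpl22, had counts at 105% ± 16.2 of those of Rpl22 in control and 137% ± 38.0 in TDP-43iΔEC libraries. By itself Rpl22l1 had 81.9, 134 and 155 CPM in control and 87.8, 76.7 and 177 CPM in TDP-43iΔEC libraries (log2 fold change −0.23, SE 0.36). Rpl7l1, a relative of Rpl7 linked to ribosome assembly, had counts at 6.63% ± 1.3 of those of Rpl7 in control and 8.78% ± 2.12 in TDP-43iΔEC libraries, and 75.5, 106 and 103 against 72.6, 99.7 and 88.5 CPM by itself. Rpl3l, which is known from heart and skeletal muscle, had 0, 0 and 92 counts in control and 302, 33 and 0 counts in TDP-43iΔEC libraries, against Rpl3 at 25821 counts or more in every library. Its fold change therefore rested on single libraries and gives no direction.

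Reads of these genes are hard to place, since most members share sequence with processed pseudogenes. Of the 81 members, 61 share the whole coding sequence, in stretches of at least 51 bases at 97% identity, with another annotated gene, and 68 share at least 50% of it. The counting program divides such reads by estimation, so that single levels are uncertain for these members. The 355 pseudogenes that share sequence with the members held 3.94% to 4.68% as many counts as the members in each library. In 8 members no such stretch was found, namely Rps21, Rpl22, Rps14, Rps3, Rpl41, Rpl7l1, Rpl4 and Rps27l. Of these, 7 had a log2 fold change below 0, and their median was −0.32. Rps14, the small subunit gene lost in the 5q- syndrome in humans, had 774, 826 and 985 CPM in control and 531, 508 and 911 CPM in TDP-43iΔEC libraries (log2 fold change −0.49, SE 0.21). Rps3 had 864, 967 and 1103 CPM in control and 696, 668 and 885 CPM in TDP-43iΔEC libraries (log2 fold change −0.40, SE 0.15). In both genes TDP-43iΔEC 1 and TDP-43iΔEC 2 lay below all control libraries, and TDP-43iΔEC 3 lay among the control libraries. For 32 members, at least 10% of exon bases overlap other annotated genes. These are often genes on the opposite strand, such as Sphk2 for Rpl18 (52.4%) and Kank3 for Rps28 (46.6%), and for some members snoRNA genes.

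Other genes of the same particle, or close copies of them, carry symbols outside the rule, and 0 of 6 such genes passed the test. Fau, which encodes the small subunit protein eS30 fused to a ubiquitin-like protein, had 501, 543 and 574 CPM in control and 362, 281 and 582 CPM in TDP-43iΔEC libraries (log2 fold change −0.49, SE 0.23). TDP-43iΔEC 1 and TDP-43iΔEC 2 lay below all control libraries, and TDP-43iΔEC 3 was the highest of the 6. Rack1, a scaffold protein bound to the small subunit, had 309, 340 and 419 CPM in control and 371, 303 and 322 CPM in TDP-43iΔEC libraries (log2 fold change −0.08, SE 0.18), and the groups overlapped. Rpl36al and Rpl37rt had log2 fold changes of 0.12 (SE 0.28) and −0.60 (SE 0.45).

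The window that RefSeq gives around the start site of a gene (250 bases before and 50 after, from assembly GRCm38.p6) was available for 61 members. The letters CTTTCC, a run of pyrimidines such as TOP mRNAs carry at their start, stood on the gene's strand in 24 of the 61 windows (39.3%), beside 16.0% of the windows of 27025 genes. CTCTTTC, which overlaps CTTTCC where the 2 run together, stood on the gene's strand in 13 (21.3%, beside 4.6%). ACTTCCG, part of the motif of ETS factors such as GABPA, was found on either strand in 21 (34.4%, beside 7.2%), and TATAAA on the gene's strand in 6 (9.8%, beside 9.8%). The stretches below are those with a single window and a CTTTCC that begins 0 to 9 bases after the RefSeq start site, shown because this is where a TOP run would lie. They were placed in GRCm39 by exact match and are written 5′ to 3′ on the gene's strand, with CTTTCC in capitals.

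Rpl38, chr11:114559394-114559423, plus strand: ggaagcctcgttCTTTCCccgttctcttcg

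Rps27, chr3:90120937-90120966, minus strand: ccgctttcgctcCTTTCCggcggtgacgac

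Rpl28, chr7:4795954-4795983, plus strand: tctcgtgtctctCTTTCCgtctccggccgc

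Rpl18, chr7:45367486-45367515, plus strand: tcgcaggccgctCTTTCCccgcccactccg

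Rpl15, chr14:4198702-4198731, plus strand: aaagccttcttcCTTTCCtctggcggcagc

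Rps10, chr17:27854197-27854226, minus strand: gcacgccccttcCTTTCCagcctccgcctc

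Rpl13a, chr7:44778143-44778172, minus strand: caagacctcctcCTTTCCcaggcggctgcc

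The fold changes of these 7 genes ran from −0.54 (SE 0.23) for Rpl13a, −0.47 (SE 0.20) for Rpl18, −0.46 (SE 0.33) for Rpl38, −0.41 (SE 0.21) for Rps10 and −0.41 (SE 0.28) for Rpl28 to −0.22 (SE 0.34) for Rps27 and −0.07 (SE 0.18) for Rpl15 on the log2 scale. The median log2 fold change was −0.37 for the 24 members with CTTTCC in the window and −0.37 for the 37 without it. Rpl38 had 191, 208 and 288 CPM in control and 139, 116 and 306 CPM in TDP-43iΔEC libraries, and Rpl15 had 524, 548 and 671 CPM in control and 500, 494 and 717 CPM in TDP-43iΔEC libraries. In both genes TDP-43iΔEC 3 was the highest of the 6 libraries. A match of letters is a description of the window and does not mark a transcription start.

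Other genes of translation were read in the same fit. Among 17 translation genes known to have TOP mRNAs, 0 passed the test, 14 lay below 0 and the median log2 fold change was −0.22. Eif3f, a subunit of initiation factor eIF3, had 274, 294 and 287 CPM in control and 214, 190 and 151 CPM in TDP-43iΔEC libraries (log2 fold change −0.60, SE 0.19, limma adjusted p = 0.381). Eif4b, a cofactor of the eIF4A helicase, had 159, 180 and 159 CPM in control and 61.5, 150 and 80.7 CPM in TDP-43iΔEC libraries (log2 fold change −0.93, SE 0.31, limma adjusted p = 0.430). Npm1, a nucleolar chaperone, had 358, 385 and 404 CPM in control and 456, 553 and 572 CPM in TDP-43iΔEC libraries (log2 fold change 0.44, SE 0.15, limma adjusted p = 0.468). The groups of these 3 genes did not overlap, but the genes were named for the lowest p of the list. Of the 17 genes, 4 were apart and lower and 1 apart and higher, beside 15.3% of all genes tested in either direction.

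In 7 snoRNA host genes, whose spliced RNAs also start with TOP runs, the median log2 fold change was 0.28, with 5 above 0 and 0 past the test. Gas5 had 132, 151 and 176 CPM in control and 232, 117 and 253 CPM in TDP-43iΔEC libraries (log2 fold change 0.34, SE 0.30). Snhg1 and Snhg3 had log2 fold changes of 0.30 (SE 0.41) and 0.45 (SE 0.70).

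Over 45 genes of ribosome biogenesis the median log2 fold change was 0.19, with 27 above 0, 18 below 0 and 0 past the test. Polr1b, the second largest subunit of RNA polymerase I, had 7.04, 13.6 and 10.8 CPM in control and 0, 1.48 and 0 CPM in TDP-43iΔEC libraries (limma adjusted p = 0.353). Wdr43, a factor of small subunit processing, had 15.3, 20.1 and 15.4 CPM in control and 72.4, 29.02 and 38.5 CPM in TDP-43iΔEC libraries (log2 fold change 1.47, SE 0.49, limma adjusted p = 0.435). In both genes the groups did not overlap, in opposite directions, but both were named for a low p in the list. Of the 45 genes, 3 were apart and lower and 8 apart and higher, beside 15.3% of all genes tested in either direction. Nolc1, a nucleolar phosphoprotein, had 37.1, 40.2 and 52.2 CPM in control and 1.23, 46.2 and 28.2 CPM in TDP-43iΔEC libraries.

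Of 21 genes that control translation through mTORC1 and the cap-binding complex, 0 passed the test and the median log2 fold change was −0.09. Eif4ebp1, the inhibitor of cap binding that mTORC1 phosphorylates, had 24.4, 12.0 and 26.1 CPM in control and 68.2, 58.9 and 77.0 CPM in TDP-43iΔEC libraries (log2 fold change 1.76, SE 0.39, limma adjusted p = 0.223). Tsc2, an inhibitor of mTORC1, had 144, 155 and 109 CPM in control and 48.1, 80.1 and 57.5 CPM in TDP-43iΔEC libraries (log2 fold change −1.19, SE 0.29, limma adjusted p = 0.271). Eif4a1, the helicase of the cap-binding complex, had 257, 257 and 227 CPM in control and 346, 452 and 340 CPM in TDP-43iΔEC libraries (log2 fold change 0.60, SE 0.18, limma adjusted p = 0.360). The groups of these 3 genes did not overlap, but the genes were named for the lowest p of the list. Of the 21 genes, 2 were apart and lower and 2 apart and higher, beside 15.3% of all genes tested in either direction.

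The cytosolic set was set beside 2 other sets of short, coordinated genes. Over 78 genes of the mitochondrial ribosome the median log2 fold change was −0.20, with 46 below 0 and 0 past the test, and their share of all counts was 0.320% ± 0.0329 in control and 0.331% ± 0.0169 in TDP-43iΔEC libraries (SD, n = 3 each). Among them Mrpl48 had 80.2, 85.9 and 71.2 CPM in control and 53.3, 40.8 and 29.5 CPM in TDP-43iΔEC libraries (log2 fold change −0.90, SE 0.30), and Mrpl24 and Mrps33 had log2 fold changes of −0.68 (SE 0.29) and −0.69 (SE 0.32). Over 75 tested of 80 nuclear-encoded genes of the respiratory chain the median log2 fold change was −0.12, with 55 below 0 and 0 past the test, and the share was 1.13% ± 0.0778 in control and 1.20% ± 0.0723 in TDP-43iΔEC libraries. Ndufs1, a subunit of complex I, had 65.6, 65.8 and 73.4 CPM in control and 120, 121 and 138 CPM in TDP-43iΔEC libraries (log2 fold change 0.88, SE 0.22, limma adjusted p = 0.287). Atp5g2 and Ndufs7 had log2 fold changes of −0.78 (SE 0.28) and −0.53 (SE 0.21). The groups of the genes named from both lists did not overlap, except for Mrps33, but the genes were named for the lowest p of each list. Of the 78 genes, 8 were apart and lower and 3 apart and higher. Of the 75 genes, 3 were apart and lower and 3 apart and higher, beside 15.3% of all genes tested in either direction. Among 1452 other abundant genes, with a mean of at least 100 CPM, the median log2 fold change was −0.07 and 58.2% lay below 0. The differences between these sets and the ribosomal protein genes were not tested.

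A scaling factor moves all genes of a library alike, so the gap between the members and all genes tested was nearly fixed under such scalings. The members' median minus that of all genes was −0.35 with TMM, −0.35 with library size only and −0.35 with EC markers. With quantile normalization, which is not a single factor per library, it was −0.25. Scaling by library size only moved the median log2 fold change of all genes to 0.18 and that of the members to −0.17, and scaling to the 5 EC markers moved them to 0.23 and −0.12, with 62 and 55 of the 81 members below 0. The medians given above for the other lists are on the TMM scale and carry the same dependence. The members' median stayed below that of all genes tested by 0.23 to 0.57 on the log2 scale under the 19 alternatives tried. The widest gap was found without TDP-43iΔEC 3, at a members' median of −0.54, and the narrowest without control 3, at −0.22.

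**Figure D5:**
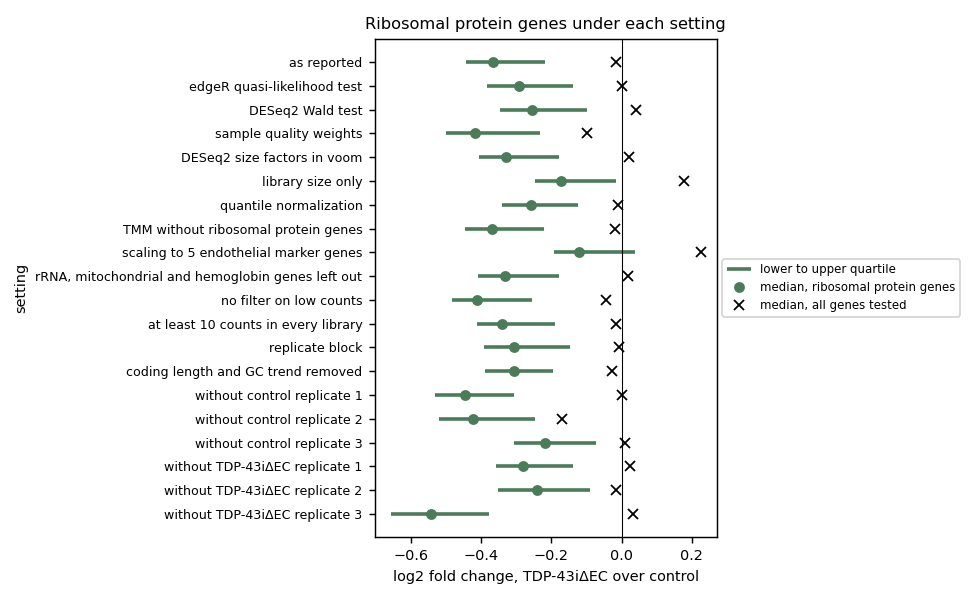
Median log2 fold change, TDP-43iΔEC over control, of the ribosomal protein genes (circles, with lines from the lower to the upper quartile) and of all genes tested (crosses) on the horizontal axis, under each way of processing on the vertical axis. The members' median runs from −0.54 to −0.12 and lies left of the median of all genes in each row, and 0 members passed an adjusted p of 0.05 in any row.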

How the data were processed

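ECs were sorted from P16 spinal cords of 3 control and 3 TDP-43iΔEC samples, grouped by the genotype in the labels. The authors aligned SMARTseq2 reads to GRCm39 with STAR 2.7.8a and deposited estimated counts per gene (GENCODE M30) from RSEM 1.3.0, unscaled and unfiltered, as whole numbers. 0 columns belonged to other samples. SMARTseq2 is not stranded, so antisense and overlapping genes cannot be told apart, and depth ran from 25704871 to 47270654 counts.

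Members, gene lists and tests were chosen with earlier results of these data known. Counts were filtered with filterByExpr, scaled by TMM (edgeR 4.0.16) and fitted with limma 3.58.1 voom in R 4.3.3 with no covariate. The methods of the study name limma with voom, and the filter, the scaling and the design were chosen here. P values were two-sided and adjusted by Benjamini-Hochberg across the 13107 genes tested, and 0.05 was the threshold. Libraries were compared pairwise and 0 were found to be duplicates by chi-square (at least 172 per degree of freedom). On simulated counts with 188 changed genes tested, limma called 23, of which 22 were changed, and on data with no change it called 1 (DESeq2 58, edgeR 0). Coding lengths, exons and positions came from GENCODE M39 (98.7% of identifiers matched) and shared sequence from BLAST 2.17.0.

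Named genes were Tardbp, the 6 members with the highest and the 6 with the lowest fold change, the 6 most abundant, set subunits, the paralogs with their parents, members near the count limit, and the 3 genes of lowest p in each list. A gene that meets this rule is not reported here. Members with no shared sequence, those with non-overlapping groups, those with a printed stretch, Rps19, Rpl36al and Rpl37rt were named after their values were seen. Alternatives were edgeR, DESeq2 1.42.0, sample quality weights, 5 other scalings, counts without rRNA, mitochondrial and hemoglobin genes, 2 filters, a replicate block, a coding length and GC correction (loess, span 0.3), and each library left out.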

Additional observations from a re-analysis of the deposited data

How the results depend on the processing

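Under all 19 alternatives 0 members passed an adjusted p of 0.05. The lowest adjusted p of any member ran from 0.104 with DESeq2 to 0.966 in limma with the coding length and GC trend removed. The median log2 fold change of the members stayed below 0 (−0.54 to −0.12), with 55 to 79 members below 0. The number of all genes called, 18, was 0 with edgeR (848 at an unadjusted p under 0.05), 247 with DESeq2, 10 with library size only, 40 with quantile normalization, 1 with scaling to EC markers, 76 without a filter, 39 with at least 10 counts in every library, 0 with the coding length and GC trend removed (483 unadjusted), and 0 to 13 with a library left out. The number of members whose groups did not overlap, 5, was 3 with library size only (beside 4.96% of all genes tested that were apart and lower), 2 with quantile normalization (7.29%), 0 with scaling to EC markers (3.98%), 8 without a filter (5.71%), and 6 to 65 with a library left out (11.7% to 14.1%). The log2 ratio of the shares, −0.09, ranged from −0.25 to 0.030 with a library left out, and was positive without control 3 alone. The causes were not tested.

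The labels do not say that the replicate numbers pair the libraries. Over all genes tested, same-numbered libraries had correlations of −0.071, −0.129 and −0.023 in their deviations from the group means. Libraries of different numbers had −0.041 to 0.124. With 3 libraries per group these values cannot show whether samples were paired. Over the members, the mean deviation was highest in library 3 of both groups (0.325 in control 3 and 0.389 in TDP-43iΔEC 3). With the replicate number as a block, 22 genes were called (18 without it) and 0 members, and the members' median was −0.31. With the block 20 members had an unadjusted limma p under 0.05, beside 4.1% of all genes tested on the lower side. Without the block it was 13 members, beside 5.0%. The block turned Rpl35 to 0.094 and Rps25 to 0.018.

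Estimates near 0 changed sign, none of them past the threshold. With library size only the log2 fold changes became 0.17 (Rpl35), 0.16 (Rps25), 0.13 (Rpl10), 0.0081 (Rps6), 0.052 (Rpl4), 0.035 (Rpl7l1) and 0.10 (Rack1). With scaling to EC markers they became 0.22 (Rpl35), 0.21 (Rps25), 0.18 (Rpl10), 0.067 (Rps6), 0.11 (Rpl4), 0.018 (Rpl5), 0.042 (Rps27a), 0.037 (Rpl22l1), 0.12 (Rpl7l1), 0.027 (Rps27) and 0.16 (Rack1). With quantile normalization they became 0.037 (Rpl35), 0.064 (Rps25), 0.17 (Rpl10), 0.057 (Rps6), 0.082 (Rpl4) and 0.0021 (Rack1). Rpl35 and Rps25 became 0.17 and 0.016 with edgeR, 0.20 and 0.053 with DESeq2, 0.0024 and 0.0043 with DESeq2 size factors, 0.0027 and 0.0032 without rRNA, mitochondrial and hemoglobin genes, and 0.044 and 0.032 with the length and GC trend removed, where Rpl10 became 0.014. Rplp0 became −0.0013 without a filter. With a library left out, estimates ranged from −0.40 to 0.18 (Rpl35), −0.21 to 0.21 (Rps25), −0.068 to 0.20 (Rplp0), −0.031 to 0.32 (Rpl12), −0.14 to 0.029 (Rpl10), −0.31 to 0.0059 (Rpl7l1), −0.54 to 0.065 (Rps27), −0.18 to 0.042 (Rack1) and −0.10 to 0.29 (Rpl36al). The part of depth in these results was not tested.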
